A study of Mus musculus with 8 samples.

Results

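The collagen chains expressed in the mouse airway were compared between old and young animals in 42 genes, out of 18172 genes measured. The array was the Affymetrix Mouse Genome 430 2.0. The members were all probe sets whose only gene symbol was that of a collagen chain, 82 of 45037 probe sets. No measured value entered this rule, but the collagens were chosen with earlier results of these data known. Each gene was represented by its brightest probe set, the one with the highest mean log2 signal over all 8 arrays. Of the 44 collagen chain symbols in the RefSeq gene table, Col6a6 and Col28a1 had no such probe set and were not analysed here. The old group was 4 mice aged 14 months, numbered 1, 2, 5 and 6, and the young group was 4 mice aged 2 months, numbered 3, 4, 7 and 8. All 8 were females of the C57Bl/6 background, for which the labels give no transgene, mutation or agent, and each gave 1 array of total RNA from the dissected distal trachea and carina, the branch point of the main airways. This piece of tissue holds surface epithelium, cartilage, smooth muscle, vessels and connective tissue together, so that fewer cells of a type and less RNA per cell cannot be told apart.

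Collagens are secreted or membrane proteins built from chains that wind around each other into a helix. The fibrillar collagens form the tensile fibres of connective tissue, whereas the network-forming type IV chains make up the sheet of basement membranes beneath epithelia and around muscle and vessels. Cartilage, which holds the airway open, has its own set of fibril, fibril-associated and network chains. FACIT collagens (fibril-associated collagens with interrupted helices) coat the surface of fibrils, and other families form beaded filaments, hexagonal lattices or membrane-spanning adhesion proteins. The 42 genes were therefore grouped as 7 fibrillar, 9 basement membrane, 8 cartilage, 6 FACIT and 12 other chains.

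The signals are intensities in arbitrary units on a linear scale. Their mean with the highest and lowest 2% left out was 500.002 on every array, and the array medians lay between 150.0 and 161. The defining markers of the labelled tissue had signals above the array medians in every mouse, for chondrocytes by little. The lowest signal of any of the 8 airway epithelium markers in any mouse was 878, and it was 6167 for the 6 smooth muscle markers, 603 for the 8 fibroblast markers and 175 for the 9 chondrocyte markers. No detection call accompanies the signals, and a probe set's level cannot be set against that of another. The number of arrays limits the precision.

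Collagen genes were mostly lower in old mice. The log2 fold change, old minus young, was below 0 in 33 of the 42 genes and above 0 in 9, with a median of -0.46, whereas 51.1% of all genes were below 0 and 48.9% above, with a median of -0.0050. At an adjusted p under 0.05 from limma, 2 collagen genes fell with age, Col1a2 and Col4a6, where 0.176% of all genes did so. Col8a2 was the 1 collagen gene that rose, where 0.336% of all genes did. In 11 collagen genes every old mouse lay below every young mouse, a pattern found in 5.11% of all genes, and in 1 every old mouse lay above, as in 4.95% of all genes. At an unadjusted p under 0.05, 22 collagen genes were lower (7.29% of all genes) and 1 was higher (7.23% of all genes). The thresholds of the study's methods were more than 2-fold at an unadjusted p below 0.05. Past them, by limma on the brightest probe sets, 3 genes were lower, Col1a1, Col9a1 and Col10a1 (0.589% of all genes). In the other direction 0 were higher (1.02% of all genes). Leaving out any 1 of the 8 mice left 0 collagen genes past an adjusted p under 0.05 in either direction, while 15 to 22 stayed lower and 1 to 2 higher at an unadjusted p under 0.05. The count of lower genes was lowest, at 15, without old mouse 6 and without young mouse 4. Shares of all genes in these refits are not given.

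Over all 82 collagen probe sets 61 were below 0 and 21 above, against 51.1% and 48.9% of the 45037 fitted. By limma 1 was lower at an adjusted p under 0.05, the further probe set of Col4a5 (0.0178% of all), and 0 were higher (0.0533%). At an unadjusted p under 0.05, 36 were lower (5.41% of all) and 2 higher (5.76%). In 23 every old mouse lay below every young mouse (3.75% of all), and in 2 above (4.05%). More than 2-fold at an unadjusted p below 0.05 there were 9 lower (0.802% of all) and 0 higher (1.19%), of which 6 were of fibrillar and 3 of cartilage chains. They included further probe sets of Col1a2, Col3a1, Col5a1, Col5a3 and Col11a1, whose brightest probe sets did not pass.

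Old mouse 6 and young mouse 4 also held many of the extremes. Among the 29 collagen genes whose mean signal was above that of the median gene (349.5), young mouse 4 had the highest signal in 17 and old mouse 6 the lowest in 14. The same counts over all genes were not made, so whether these extremes are particular to collagens is not shown. Of these 29 genes, 10 did not overlap between ages with the old mice lower, or 34.5%, against 6.94% of all genes above the median signal. Of the 13 dimmer collagen genes 1 did so, or 7.69%, against 3.28% of all dimmer genes.

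**Figure D1:**
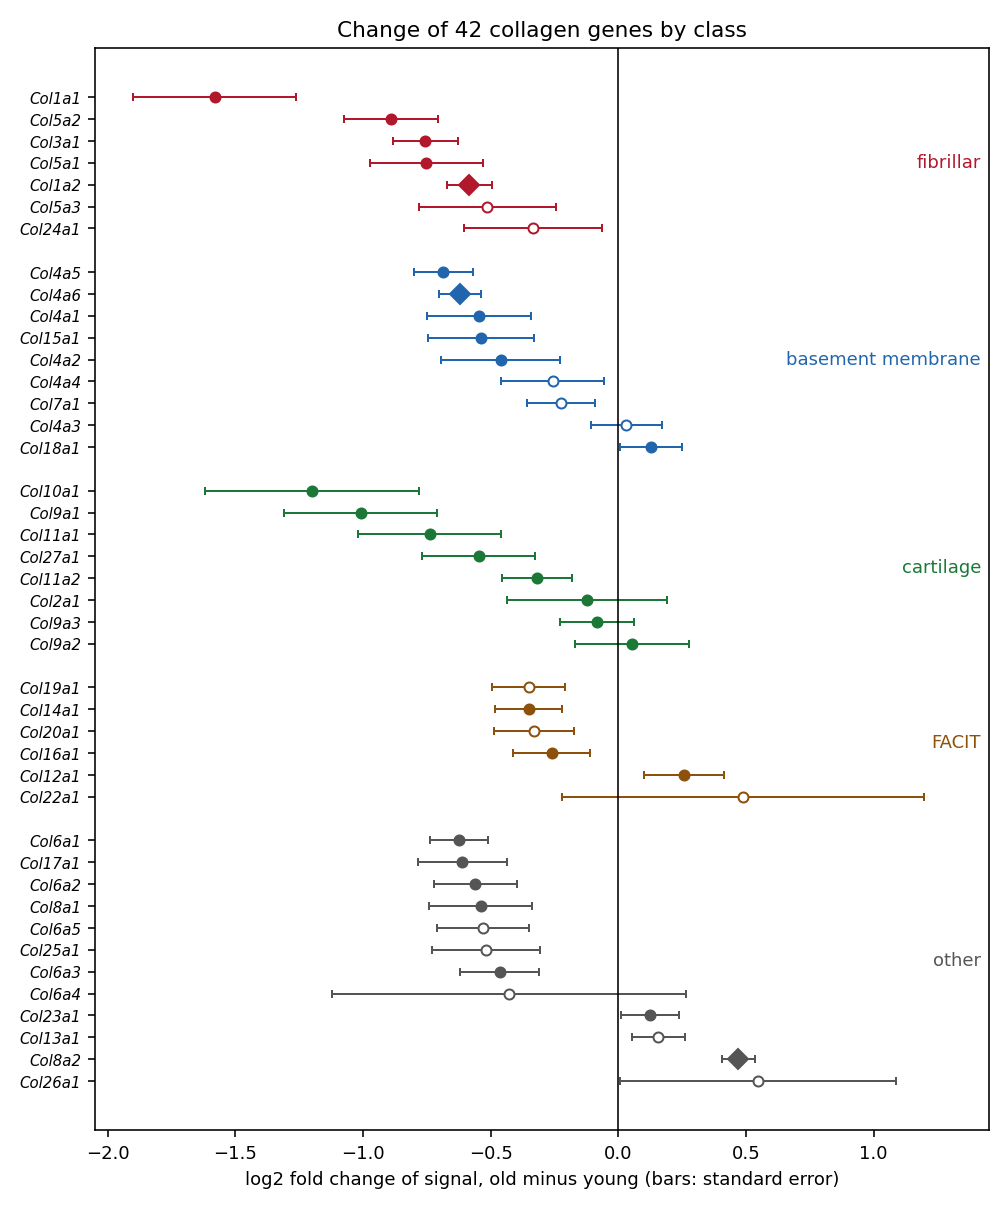
Log2 fold change of signal, old minus young, for the 42 collagen genes in their 5 classes, with bars for the standard error. Diamonds are the genes at an adjusted p under 0.05 (Col1a2, Col4a6 and Col8a2), and open symbols are genes with a mean signal below the median gene; 33 of the 42 points lie left of 0.

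The classes differed in how far and how evenly they lay below 0, and these differences between classes were not tested. The fibrillar chains had the lowest median log2 fold change, -0.75, with 7 of 7 genes below 0 and 4 without overlap between ages, where 5.11% of all genes were lower without overlap. The fibril-forming chains of cartilage, Col2a1 (-0.12), Col11a1 (-0.74), Col11a2 (-0.32) and Col27a1 (-0.55), were counted under cartilage. A fibrillar class that includes them was not tried. The medians were -0.46 for basement membrane (7 of 9 below 0), -0.43 for cartilage (7 of 8), -0.30 for FACIT (4 of 6) and -0.49 for the other chains (8 of 12). A class level was also taken in each mouse, as the median over the class of each gene's log2 signal relative to its mean over the 8 mice. For fibrillar chains this level was -0.64 to -0.26 in old and 0.11 to 0.67 in young mice. It was -0.41 to 0.079 in old and 0.11 to 0.27 in young mice for basement membrane chains, and -0.15 to -0.078 against 0.017 to 0.48 for the other chains. The ages did not overlap in these 3 classes. They overlapped for cartilage, at -0.36 to 0.020 in old and -0.36 to 0.63 in young mice, and for FACIT chains, at -0.17 to 0.0011 in old and -0.094 to 0.37 in young mice.

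The sequences upstream of 6 of these genes are shown because they are the promoter-proximal regions of the genes past the adjusted threshold (Col1a2, Col4a6 and Col8a2) and of chains that were lower beside them (Col3a1, Col4a5 and Col6a1). They are RefSeq windows of GRCm38.p6, of 250 bases where the first annotated start allows and shortened to end before it in Col4a5 (201 bases) and Col4a6 (231 bases), written 5′ to 3′ on the gene's own strand. Capitals mark the motif CCAAT, the motif TATAA and the motif GGGCGG on either strand.
Col1a2 (chr6:4505368-4505617, plus strand): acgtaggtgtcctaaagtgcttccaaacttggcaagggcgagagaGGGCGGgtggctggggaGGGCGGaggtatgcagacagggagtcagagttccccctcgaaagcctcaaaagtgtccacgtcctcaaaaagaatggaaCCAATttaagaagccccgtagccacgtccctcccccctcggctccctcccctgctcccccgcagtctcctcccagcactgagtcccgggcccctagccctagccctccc
Col3a1 (chr1:45311288-45311537, plus strand): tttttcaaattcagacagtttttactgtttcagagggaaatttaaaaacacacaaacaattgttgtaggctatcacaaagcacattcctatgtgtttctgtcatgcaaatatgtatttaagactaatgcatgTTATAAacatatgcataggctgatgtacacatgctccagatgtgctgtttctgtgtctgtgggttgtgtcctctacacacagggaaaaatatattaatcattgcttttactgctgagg
Col4a5 (chrX:141475169-141475369, plus strand): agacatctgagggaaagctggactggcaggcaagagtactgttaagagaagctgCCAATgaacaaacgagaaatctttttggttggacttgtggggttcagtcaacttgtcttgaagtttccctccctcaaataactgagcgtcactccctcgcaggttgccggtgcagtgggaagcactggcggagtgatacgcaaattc
Col4a6 (chrX:141474096-141474326, minus strand): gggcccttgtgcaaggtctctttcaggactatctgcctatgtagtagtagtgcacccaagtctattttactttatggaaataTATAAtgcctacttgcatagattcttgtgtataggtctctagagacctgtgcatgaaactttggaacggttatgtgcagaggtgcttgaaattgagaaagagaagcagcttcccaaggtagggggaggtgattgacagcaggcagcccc
Col6a1 (chr10:76726045-76726294, minus strand): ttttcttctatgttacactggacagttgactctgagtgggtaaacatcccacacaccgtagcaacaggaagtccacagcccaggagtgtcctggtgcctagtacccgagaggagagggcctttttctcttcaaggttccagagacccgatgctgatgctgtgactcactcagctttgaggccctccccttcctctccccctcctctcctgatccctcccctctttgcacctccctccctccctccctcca
Col8a2 (chr4:126286544-126286793, plus strand): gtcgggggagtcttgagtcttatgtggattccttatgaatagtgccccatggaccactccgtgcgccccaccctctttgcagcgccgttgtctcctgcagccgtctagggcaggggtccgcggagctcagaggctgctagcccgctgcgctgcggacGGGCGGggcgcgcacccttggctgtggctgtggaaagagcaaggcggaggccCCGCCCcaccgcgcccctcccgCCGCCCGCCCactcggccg

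Of the 42 genes, 33 had a window in the RefSeq table, 36 windows in all, each searched over its first 250 bases. Counted back from the last base shown, CCAAT began at position 109 in Col1a2 and 147 in Col4a5. TATAA began at 117 in Col3a1, where its reverse complement overlaps it from 118, and at 149 in Col4a6. GGGCGG was found at 205 and 188 in Col1a2, and in Col8a2 at 93 and, as its reverse complement, at 41, 19 and 15, of which the last pair overlap. The Col6a1 window held none of these letters. The windows of Col4a5 and Col4a6 also held GGGCGG or its reverse complement, in bases that end past those shown. GGGCGG or its reverse complement was present in 21 of the 36 collagen windows (58.3%) and in 32.7% of 32851 windows of all genes. CCAAT was in 13 (36.1%, against 33.8% of all windows) and TATAA in 7 (19.4%, against 22.8%). These are matches of letters and say nothing of binding.

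Type I collagen, the main fibre of most connective tissue, is made of the Col1a1 and Col1a2 chains. Col1a1 signals were 4197, 5304, 3239 and 2213 in young mice 3, 4, 7 and 8, and 1717, 1186, 1241 and 787 in old mice 1, 2, 5 and 6, and all later signals follow this order. All 4 old mice were below all 4 young, and the nearest values were those of young mouse 8 and old mouse 1. Col1a1 had a log2 fold change of -1.58 (SE 0.32, adjusted p = 0.0899), with means of 1233 ± 381 for old and 3738 ± 1321 for young mice (SD, n = 4 each), a 2.99-fold lower geometric mean in old mice that did not pass the adjusted threshold. Col1a2 signals were 18401, 19499, 16950.5 and 16119 in young and 11779, 12603, 12125 and 10796 in old mice. The ages were far apart compared with the spread within them, and Col1a2 fell with age (log2 fold change of -0.58, SE 0.088, adjusted p = 0.0470), an old level 0.667 times the young level. Without any 1 mouse its adjusted p was 0.0795 to 0.133. It was also above the threshold, at 0.0501 to 0.0902, after quantile normalization, with mouse numbers as a block, without moderation, with the mean of its probe sets and with identifiers ending in _x_at or _s_at left out.

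Type III collagen, a fibre of distensible tissues that often runs with type I, is made of the Col3a1 chain alone. Its signals were 21113, 23144, 20496 and 17585 in young and 13138, 13793, 11811 and 10105 in old mice, with no overlap. With a log2 fold change of -0.76 (SE 0.13, adjusted p = 0.0603) it missed the threshold, and a block for mouse numbers 1 to 4 against 5 to 8 brought the adjusted p to 0.0457. Type V collagen assembles together with type I and limits the width of its fibrils. Col5a2 signals were 6018, 6553, 5671 and 4468 in young and 3849.5, 3368, 2803 and 2319.5 in old mice, again with every old mouse below every young mouse (log2 fold change of -0.89, SE 0.18, adjusted p = 0.0952). Col5a1 signals were 2725, 2969, 2107 and 1801 in young and 1909, 1293, 1439 and 1074 in old mice, where old mouse 1 reached above young mouse 8 (log2 fold change of -0.75, SE 0.22, adjusted p = 0.184). The dimmer chains Col5a3, at -0.51 (SE 0.27, adjusted p = 0.430), and Col24a1, at -0.34 (SE 0.27, adjusted p = 0.626), overlapped between ages. Within mouse numbers 1 to 4 and 5 to 8 the log2 fold changes were -1.73 and -1.44 for Col1a1, -0.64 and -0.53 for Col1a2, -0.72 and -0.80 for Col3a1, and -0.80 and -0.98 for Col5a2.

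**Figure D2:**
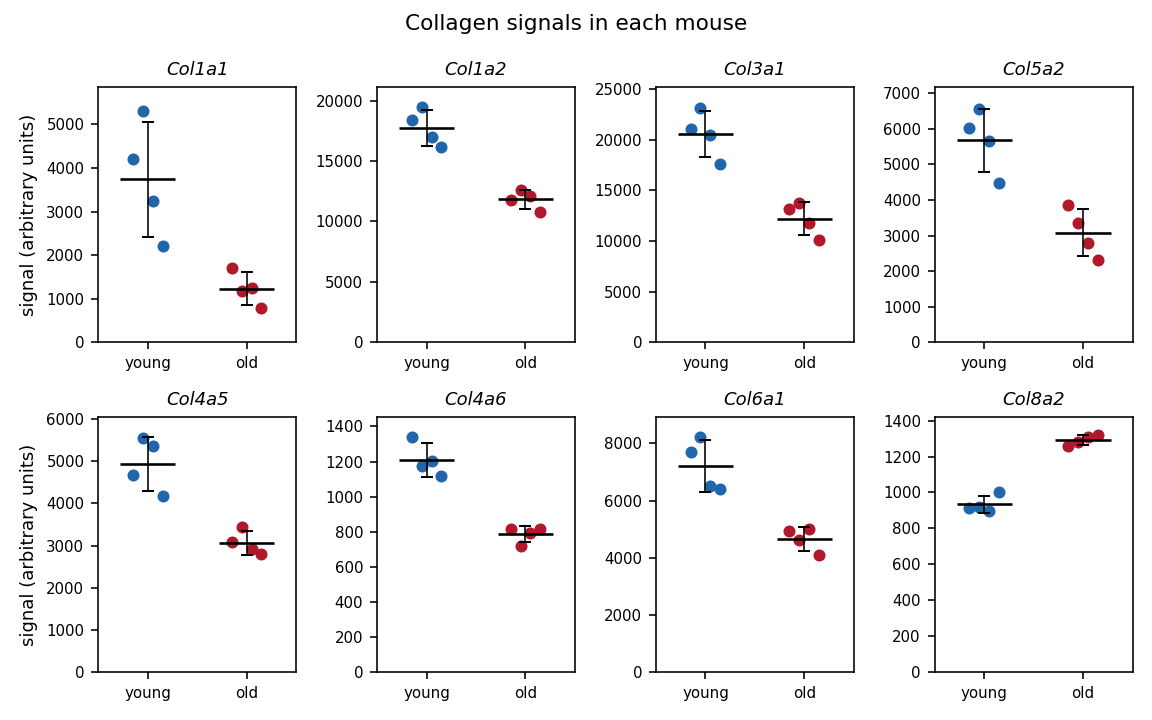
Signal (arbitrary units, linear axis from 0) of 8 collagen genes in the 4 young and 4 old mice; points are mice, long lines group means and bars the SD. The ages do not overlap in any of the 8, with old mice lower in 7 and higher in Col8a2.

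Among basement membrane chains, Col4a6 fell and its partner Col4a5 lay beside it. These 2 chains assemble together in the basement membranes of smooth muscle and of some epithelia, and their genes face away from each other at 1 locus of chromosome X, as the windows above show. Col4a6 signals were 1343, 1176, 1200.5 and 1119 in young and 815, 721, 793 and 814 in old mice, with the lowest young mouse well above the highest old one. Its log2 fold change of -0.62 (SE 0.082, adjusted p = 0.0340) passed the threshold. Without any 1 mouse the adjusted p was 0.0715 to 0.101, and it was 0.0583 with the block for mouse numbers and 0.0624 with the mean of its probe sets. Col4a5 signals were 4665, 5565, 5353 and 4181 in young and 3076, 3442, 2932 and 2792 in old mice, without overlap (log2 fold change of -0.69, SE 0.12, adjusted p = 0.0603). Its further probe set, 1425475_at, read 1182, 1141, 1190.1 and 986 in young and 649, 646, 599 and 608 in old mice. In the fit over all probe sets this was the 1 collagen probe set past the adjusted threshold (log2 fold change of -0.84, SE 0.092, adjusted p = 0.0436). It did not pass without any 1 mouse, with the block for mouse numbers, without moderation or with identifiers ending in _x_at or _s_at left out.

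The Col4a1 and Col4a2 chains, which form the network of nearly all basement membranes, lie head to head on chromosome 8. Col4a1 signals were 7306, 7902, 6241 and 5576 in young and 5958, 4686, 4971 and 3185 in old mice. Col4a2 signals were 3484, 2629, 2728 and 1931 in young and 2432, 1903, 2161 and 1344 in old mice. By the brightest probe set of both genes, old mouse 6 was far below the other old mice, and old mouse 1 was above young mouse 8. Neither passed the adjusted threshold (Col4a1 -0.55, SE 0.20, adjusted p = 0.282; Col4a2 -0.46, SE 0.23, adjusted p = 0.414). The further Col4a1 probe set 1426348_at read 1434, 1354, 1483 and 1313 in young and 1296, 1006, 944 and 940 in old mice. There the ages did not overlap (log2 fold change of -0.43, SE 0.12, adjusted p = 0.279), and old mice 5 and 6 were nearly equal. Without old mouse 6 the median of the whole class was -0.29 rather than -0.46. The Col4a3 and Col4a4 chains, known from kidney and lung basement membranes, were dim and at 0.031 (SE 0.14) and -0.26 (SE 0.20). Of the chains at the border of basement membrane and stroma, Col15a1 read 886, 1008, 658 and 765 in young and 718, 672, 497 and 422 in old mice (log2 fold change of -0.54, SE 0.21, adjusted p = 0.292), with old mice 1 and 2 above young mouse 7. Col18a1, the source of endostatin, had signals of 685, 612, 783 and 589.8 in young and 660.4, 739, 843 and 669 in old mice, which overlapped throughout (log2 fold change of 0.13, SE 0.12, adjusted p = 0.693). Col7a1, the chain of anchoring fibrils, was at -0.23 (SE 0.13, adjusted p = 0.488).

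Type VI collagen forms beaded filaments around cells, from the Col6a1, Col6a2 and Col6a3 chains. Col6a1 signals were 7691, 8219.7, 6501 and 6398 in young and 4923, 4603, 5013 and 4094 in old mice. Col6a2 signals were 8393, 8977, 6249.9 and 6392 in young and 5658, 5008, 5512 and 4075 in old mice. Col6a3 signals were 8813, 9022, 6828 and 6787 in young and 6703, 5332, 6146 and 4631 in old mice. All 3 chains were without overlap, with young mice 3 and 4 above young mice 7 and 8 and old mouse 6 lowest in each. None passed the adjusted threshold in limma: Col6a1 was at -0.62 (SE 0.11, adjusted p = 0.0706), Col6a2 at -0.56 (SE 0.16, adjusted p = 0.178) and Col6a3 at -0.46 (SE 0.15, adjusted p = 0.233), and all 3 were under 0.05 unadjusted. The gap for Col6a3 was narrow, between 6787 in young mouse 8 and 6703 in old mouse 1. Col6a5, a related chain, had signals of only 46.2, 34.6, 32.3 and 44.1 in young and 32.2, 26.8, 20.4 and 29.7 in old mice, where young mouse 7 and old mouse 1 were nearly equal (log2 fold change of -0.53, SE 0.18, adjusted p = 0.237). Col6a4 was also dim, at -0.43 (SE 0.69).

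Col17a1, a membrane-spanning collagen of the hemidesmosomes that anchor basal epithelial cells, read 591, 572, 379.9 and 436 in young and 315, 261, 361 and 347 in old mice. The ages did not overlap (log2 fold change of -0.61, SE 0.17, adjusted p = 0.173), but the distance lay mostly with young mice 3 and 4, and the log2 fold change was -1.02 within mouse numbers 1 to 4 and -0.20 within 5 to 8. Over the 8 airway epithelium markers, 0 were lower and 2 higher at an unadjusted p under 0.05 (7.29% and 7.23% of all genes), Krt5 of basal cells at 0.31 (SE 0.094, adjusted p = 0.194) and Krt8 of luminal cells at 0.33 (SE 0.096, adjusted p = 0.183). Of the 8, 4 were below 0 and 4 above, and Trp63, also of basal cells, was at -0.048 (SE 0.090). The summed signal of these markers was 54930.2 to 62714 in old and 55323 to 59921 in young mice, and its part in the Col17a1 result was not tested.

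Type VIII collagen, a short-chain collagen that forms lattices beneath endothelia and around vessels, gave the 1 chain that rose. Col8a2 signals were 913, 917, 899 and 1005 in young and 1258, 1281, 1307 and 1319.7 in old mice. Both groups were tight and well apart, and Col8a2 rose with age (log2 fold change of 0.47, SE 0.065, adjusted p = 0.0368), with means of 1292 ± 27.4 for old and 934 ± 48.4 for young mice (SD, n = 4 each). The log2 fold change was 0.47 within both mouse numbers 1 to 4 and 5 to 8, and without any 1 mouse it was 0.45 to 0.51 with an adjusted p of 0.0724 to 0.120. The adjusted p was 0.0581 with the block for mouse numbers and 0.0571 where genes took the mean of their probe sets, although Col8a2 has 1. Col8a1, the other chain of the type, read 2204, 3753, 2525 and 3262 in young and 2079, 2508, 1642 and 1784 in old mice, with old mouse 2 above young mouse 3 (log2 fold change of -0.54, SE 0.20, adjusted p = 0.285). The difference between the 2 chains was not tested. Of the 7 endothelial markers, 2 were lower (Tie1 at -0.42 and Cldn5 at -0.28) and 2 higher (Emcn at 0.29 and Kdr at 0.25) at an unadjusted p under 0.05, against 7.29% and 7.23% of all genes, with 0 past the adjusted threshold in limma, and their summed signal was 2729 to 3173 in old and 2830.3 to 3110.4 in young mice. Their part in the Col8a2 result was not tested. The membrane-spanning chains Col13a1 (0.16, SE 0.10), Col23a1 (0.13, SE 0.11) and Col25a1 (-0.52, SE 0.21) and the dim Col26a1 (0.55, SE 0.54) overlapped between ages, with adjusted p from 0.321 to 0.702.

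Cartilage chains had log2 fold changes below 0 in 7 of 8 genes, by amounts that varied between chains and with a wide spread between young mice. Col10a1, a network chain of hypertrophic chondrocytes, gave 1911, 4332, 5634 and 7416 in young and 2144, 2552, 1645 and 1378 in old mice. Young mice 4, 7 and 8 were above all old mice, whereas young mouse 3 was within their range, and the young values spread widely. Its log2 fold change of -1.20 (SE 0.42, adjusted p = 0.253) did not pass, and without young mouse 3 it was -1.59 with an adjusted p of 0.128. Col9a1, whose type IX collagen sits on the surface of cartilage fibrils, had 1290.0, 2739, 1919.6 and 2509.6 in young and 1090.0, 1469, 699.8 and 927 in old mice (log2 fold change of -1.01, SE 0.30, adjusted p = 0.188), with old mouse 2 above young mouse 3. Col11a1, a fibril chain that nucleates type II fibrils, had 1235, 2692, 2222 and 2734 in young and 1332, 1682, 1046 and 1109 in old mice (log2 fold change of -0.74, SE 0.28, adjusted p = 0.288). Col2a1, the main cartilage collagen, had 1304, 3617, 2318 and 2739.8 in young and 2358, 2699, 1656 and 2022 in old mice, so that young mice held both the lowest and the highest value (log2 fold change of -0.12, SE 0.31, adjusted p = 0.897). Its sign turned without old mouse 5 (0.0023) and without young mouse 4 (0.087), and it was -0.40 without young mouse 3.

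Of the other cartilage chains, Col27a1, a fibrillar chain of growing cartilage, was at -0.55 (SE 0.22, adjusted p = 0.312) and Col11a2, the partner of Col11a1, at -0.32 (SE 0.14, adjusted p = 0.347). Col9a3 was at -0.084 and Col9a2 at 0.053. In total 4 of the 8 chains were lower at an unadjusted p under 0.05 (7.29% of all genes), 0 passed the adjusted threshold in limma (0.176% of all genes lower and 0.336% higher), and 0 were free of overlap (5.11% of all genes lower and 4.95% higher). The 2 sets of mouse numbers gave different values. Within 1 to 4 and within 5 to 8 the log2 fold changes were -0.30 and -2.10 for Col10a1, -0.57 and -1.45 for Col9a1, -0.28 and -1.19 for Col11a1, 0.22 and -0.46 for Col2a1, and -0.98 and -0.12 for Col27a1. The labels do not say whether the numbers mark a batch.

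Markers of chondrocytes varied between mice too. Their summed signal was 12355, 20357, 19095 and 27342 in young and 18794, 22027, 16463 and 17405 in old mice, lowest in young mouse 3 and highest in young mouse 8. Of 10 listed markers 9 were measured, and 1 was lower at an unadjusted p under 0.05 and 1 higher, against 7.29% and 7.23% of all genes. Acan, the aggrecan core protein of cartilage, had 4593, 6329, 5681 and 8140.3 in young and 4228, 4407, 3946 and 3907 in old mice (log2 fold change of -0.56, SE 0.17, adjusted p = 0.190). Comp, a matrix protein that binds cartilage and tendon fibrils, had 1375, 2265, 1904 and 2394 in young and 3058, 3266, 2943 and 2998 in old mice (log2 fold change of 0.66, SE 0.17, adjusted p = 0.152). Neither overlapped between ages, and they lay in opposite directions. Sox9, the transcription factor of the chondrocyte lineage, was at -0.18 (SE 0.21, adjusted p = 0.755). The part of the amount of cartilage in each dissection in these results was not tested.

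**Figure D3:**
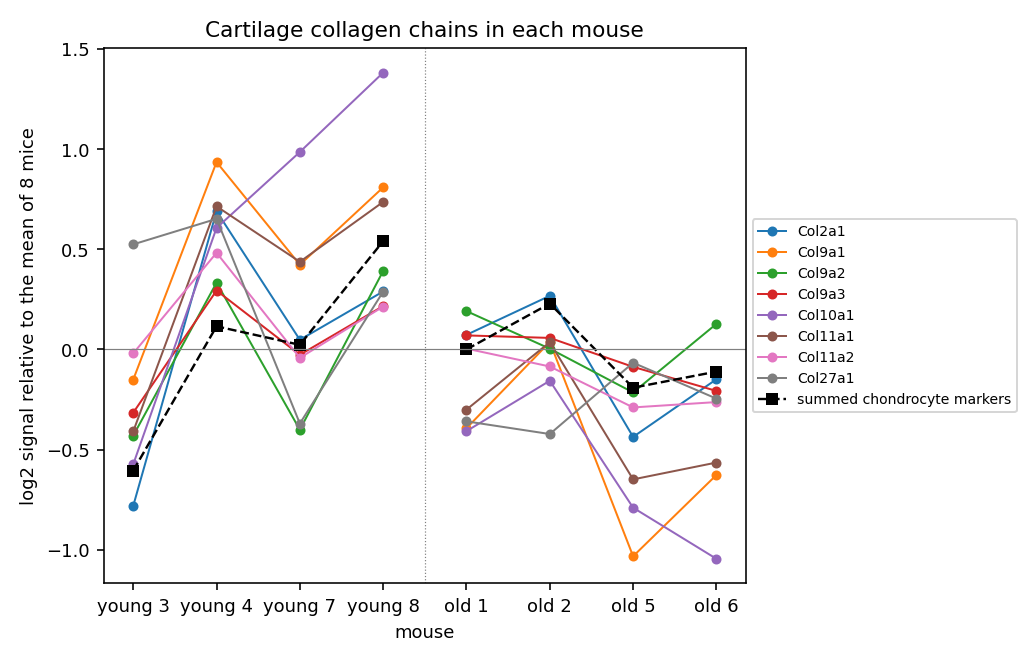
Log2 signal of 8 cartilage collagen chains and of the summed chondrocyte markers (black squares, dashed), each relative to its own mean over the 8 mice; lines join the values of 1 gene within an age and carry no order. Young mouse 3 lies below the other young mice for most chains, with the lowest Col2a1 signal of all 8 mice (1304), and Col10a1 spans the widest range among the young.

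FACIT chains had the class median nearest to 0. By the brightest probe set 0 of the 6 were without overlap, where 5.11% of all genes were lower and 4.95% higher without overlap. Col14a1, which binds fibrils of dense connective tissue, had 5472, 4804, 3962 and 3732 in young and 3566, 3734, 3420.2 and 3233 in old mice, where old mouse 2 and young mouse 8 were nearly equal (log2 fold change of -0.35, SE 0.13, adjusted p = 0.284). Its further probe set 1428455_at read 1728, 1689, 1456 and 1301 in young and 1127, 1152, 1074 and 1034 in old mice, without overlap (log2 fold change of -0.48, SE 0.11, adjusted p = 0.198). Col12a1, a related chain, had 557, 759.5, 679 and 899 in young and 901, 909, 895 and 719 in old mice, higher on average in the old (log2 fold change of 0.26, SE 0.16, adjusted p = 0.507), with old mice 5 and 6 within the young range. Col16a1 had 917, 901, 597 and 652 in young and 642, 623, 628 and 619.9 in old mice (log2 fold change of -0.26, SE 0.15, adjusted p = 0.480). Its old mice were close together, while young mice 3 and 4 stood well above and young mouse 7 below them. Col19a1, which lies next to Col9a1 on chromosome 1, was dim and had 209.6, 206, 293 and 247 in young and 208, 166, 166 and 206 in old mice (log2 fold change of -0.35, SE 0.14, adjusted p = 0.319). Its further probe set 1456953_at read 224, 243, 253 and 261 in young and 196, 139, 168 and 189 in old mice. By that probe set the ages did not overlap (log2 fold change of -0.51, SE 0.13, adjusted p = 0.222). The dimmer 1430676_at (mean signal 24.8) was at 0.042 (SE 0.78). Col20a1 was at -0.33 (SE 0.16, adjusted p = 0.383) and Col22a1, a chain of tissue junctions, at 0.49 (SE 0.71, adjusted p = 0.808), which rests on a signal of 12.0 in young mouse 4.

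Where a gene had several probe sets, they mostly gave the same direction. There were 27 such genes, with 40 pairs of a further probe set and the brightest, and 15 genes had 1 probe set. Limma on the within-array difference of each pair called 0 of the 40 at an adjusted p under 0.05, as it called 0.00% of 16729 pairs over all genes, with a smallest collagen value of 0.563. At an unadjusted p under 0.05, 7 pairs differed (17.5%), against 7.28% of all pairs. Probe sets of 6 genes, Col6a4, Col8a1, Col19a1, Col22a1, Col25a1 and Col26a1, differed in sign (22.2%, against 53.3% of all genes with several), and those of 2 genes, Col5a3 and Col6a4, differed by more than 1 in log2 fold change (7.41%, against 10.1%). In the 16 pairs whose further probe set was above the median gene signal the sign was the same in all 16, with a median difference of 0.18 and a largest of 0.60. In the other 24 pairs it was the same in 18, with a median of 0.28 and a largest of 1.60.

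The 7 pairs included the main fibre chains, in both directions. The further probe set of Col1a1, 1455494_at, read 2269, 2965, 2109.7 and 1679 in young and 1375, 1039, 1043 and 787 in old mice, a log2 fold change of -1.09 against -1.58 for the brightest (difference 0.50, SE 0.14, adjusted p = 0.595). For Col1a2 the further probe set 1423110_at read 8679, 11089, 8115 and 7199 in young and 4358, 4359, 4116 and 3383 in old mice, -1.10 against -0.58 (difference -0.52, SE 0.11, adjusted p = 0.563). Taken by these probe sets, the 2 type I chains had nearly the same log2 fold change, -1.09 and -1.10, whereas by the brightest they were -1.58 and -0.58. For Col3a1, 1427884_at read 3799, 4829.8, 3164 and 2253 in young and 1725, 1538, 1119 and 1034 in old mice, -1.35 against -0.76 (difference -0.60, SE 0.18, adjusted p = 0.595). Each of these probe sets was without overlap between ages, as was 1434479_at of Col5a1, which was lower by more than 2-fold (1677, 1951, 1680.2 and 1372 in young and 1152, 767, 804 and 661 in old mice, SE 0.19, adjusted p = 0.136). The brightest Col1a2 and Col3a1 probe sets had signals of at least 10796 and 10105 in every mouse, and whether signals that high rise in proportion to RNA was not tested.

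The other 4 pairs involved Col8a1, Col9a1, Col23a1 and Col5a3. For Col9a1 the further probe set was at -0.54 against -1.01, a difference of 0.47 (SE 0.10). For Col8a1 the dim 1418441_at was at 0.14 against -0.54, a difference of 0.68 (SE 0.14), while 1418440_at was at -0.45. For Col23a1, 1429210_at read 843, 799.7, 566 and 739 in young and 928, 1067, 925 and 874 in old mice, all old above all young, at 0.38 (SE 0.14, adjusted p = 0.396), against 0.13 for the brightest. The Col5a3 difference of -1.60 came from a probe set with signals of 11.5, 20.0, 15.9 and 5.52 in young and 4.41, 1.90, 3.81 and 1.80 in old mice, near the bottom of the arrays. Chains with agreeing probe sets included Col4a6 (-0.44 beside -0.62), Col4a1 (-0.43 beside -0.55), Col5a2 (-0.77 beside -0.89), Col6a2 (-0.47 beside -0.56) and Col11a1, whose further probe set 1418599_at was without overlap at -1.03 beside -0.74.

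**Figure D4:**
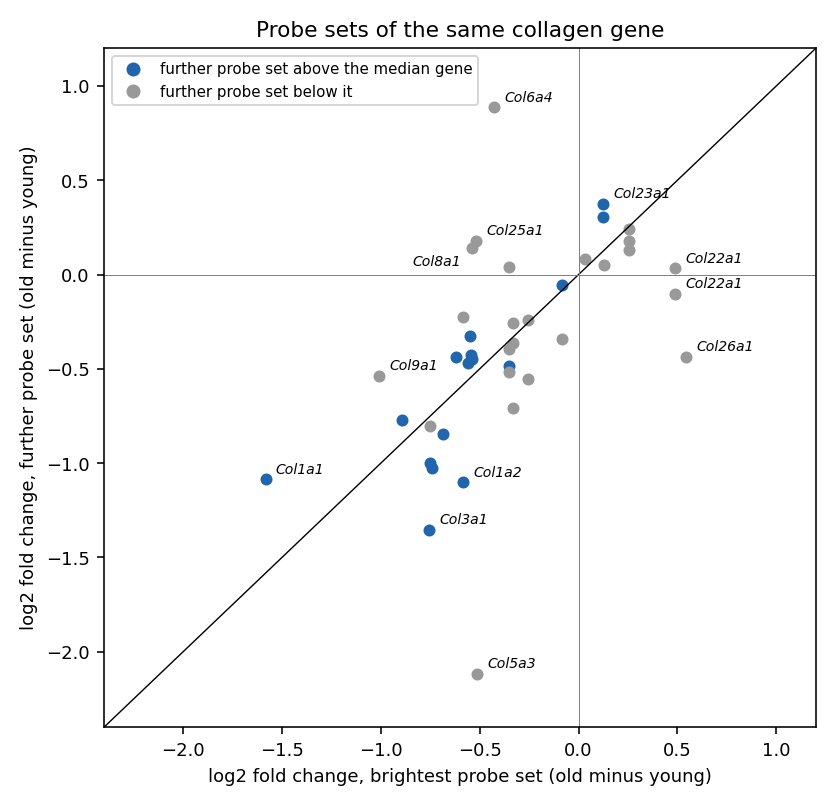
Log2 fold change, old minus young, of each further probe set (vertical) against the brightest probe set of the same gene (horizontal) for 40 pairs in 27 collagen genes; the diagonal marks equal values. Blue points, whose further probe set was above the median gene signal, all lie in the quadrants of equal sign, and grey points below it scatter more widely.

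Genes that modify, process and bind collagen were counted in the same way, against 7.29% of all genes lower and 7.23% higher at an unadjusted p under 0.05. Of 26 listed symbols of collagen modification and folding in the endoplasmic reticulum, older synonyms included, 19 were measured, and 0 were lower and 1 higher at an unadjusted p under 0.05, P4ha1, a prolyl hydroxylase subunit, at 0.28 (SE 0.11, adjusted p = 0.312), and the median was -0.089. Serpinh1, the chaperone of procollagen, was at -0.38 (SE 0.17, adjusted p = 0.369). Of 13 listed genes of procollagen processing and cross-linking 10 were measured. Adamts2, Adamts14 and Loxl2 had no probe set named for them alone in the annotation used and were not analysed here, so the counts say nothing of them. Of the 10, 2 were lower at an unadjusted p under 0.05 and 0 higher, and the median was -0.27. Pcolce2, an enhancer of procollagen cleavage, had 3245, 3366, 3266 and 3715 in young and 2541, 2998, 2352 and 2715 in old mice, without overlap (log2 fold change of -0.36, SE 0.094, adjusted p = 0.152), and Adamts3, a procollagen protease, was at -0.35 (adjusted p = 0.312). Of the lysyl oxidases, which cross-link fibres, Lox was at -0.32 (SE 0.21) and Loxl1 at -0.47 (SE 0.20). Loxl4 was at -0.43 (SE 0.25) and Loxl3 at 0.058 (SE 0.15). Of 9 listed collagen receptors 8 were measured. Ddr2, a receptor kinase for fibrillar collagen, was lower, with 2772, 2839, 2335 and 2319.7 in young and 2204, 1981, 1942 and 1956 in old mice (log2 fold change of -0.34, SE 0.096, adjusted p = 0.171), and Lair1, an inhibitory receptor of leukocytes, was higher at 0.48 (adjusted p = 0.334), both at an unadjusted p under 0.05, and the median was -0.13. In these 3 lists 0 genes passed the adjusted threshold in limma.

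Some markers of the cells that make collagen were lower at an unadjusted p. Of 8 fibroblast markers, 3 were lower at an unadjusted p under 0.05 (7.29% of all genes) and 0 higher (7.23%), Mfap5 at -0.42 (adjusted p = 0.110), Pi16 at -0.73 (adjusted p = 0.136) and Fbln1 at -0.36 (adjusted p = 0.237), while Pdgfra was at -0.061, Dcn at -0.067 and Lum at 0.0067, and the summed signal was 50179.7 to 56951 in old and 53258 to 59323 in young mice. Of 6 smooth muscle markers 2 were lower and 0 higher, against the same shares of all genes, Myh11 at -0.41 (adjusted p = 0.129) and Tagln at -0.18 (adjusted p = 0.313), with a summed signal of 70519 to 81199 in old and 80120.2 to 92531 in young mice. The sums overlapped between ages for both lists. Tissues around the airway were compared by the sums of their markers. The summed signal of 6 skeletal muscle markers was 1575 to 2279 in old and 2471 to 3206 in young mice, without overlap, with Tnnt3 at -1.09 (adjusted p = 0.109). The 6 did not move together, with 4 below 0 and 2 above, Mylpf at 0.29 and Acta1 at 0.32. The sum of 5 oesophagus markers was 1306 to 2260.0 in old and 589 to 840.0 in young mice. Most of it was the signal of Krt4, at 1.39 (adjusted p = 0.0706). The median of the 5 was 0.095, with 3 above 0 and 2 below, Krtdap at -0.60 and Ivl at -0.25. The sum of 5 plasma and B cell markers was 806 to 1722 in old and 573 to 670.1 in young mice. Both sums were higher in every old mouse. The sums of 3 Schwann cell markers (2236 to 2663 in old and 2615 to 3005 in young mice), 4 adipocyte markers (4606 to 10278 in old and 6829 to 12185 in young mice) and 4 thyroid markers (282 to 407 in old and 173 to 438 in young mice) overlapped. No gene of these lists passed the adjusted threshold in limma, and the part of any of these cell types in the collagen results was not tested.

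Some chain genes lie next to each other in the mouse genome with no other protein-coding gene between them, and 7 such pairs were measured. Beside Col4a5 with Col4a6 and Col4a1 with Col4a2, described above, Col3a1 lies next to Col5a2 (-0.76 and -0.89) on chromosome 1, Col6a1 next to Col6a2 (-0.62 and -0.56) on chromosome 10, and Col9a1 next to Col19a1 (-1.01 and -0.35) on chromosome 1. In these 5 pairs both genes were below 0. The 2 pairs of dim genes were Col4a3 with Col4a4 (0.031 and -0.26) and Col6a4 with Col6a5 (-0.43 and -0.53), with overlapping ages in all but Col6a5.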

How the data were processed

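Total RNA of the distal trachea and carina of 8 mice was measured on 8 arrays and grouped by the labels. The deposited table holds intensity values made by the authors, linear rather than log2, with the same trimmed mean on every array. The labels name Partek and the study's methods robust multichip analysis, which does not usually give such values, so the normalization is not settled. The signals were taken to log2 with no floor or filter. Of 45101 probe sets 64 controls were left out, and 34945 have 1 gene symbol in the platform annotation, 932 several and 9160 none. Genes took their brightest probe set among those with 1 symbol, antibody segments aside. Ages were compared with limma 3.58.1 in R 4.3.3, by a two-sided moderated test of age alone (lmFit, eBayes), with Benjamini-Hochberg adjustment over all probe sets, genes or probe set pairs. The second factor of the methods' two-way analysis is not named and was left out. Every p-value is from a limma fit and sets the difference between ages against the spread between mice of an age, each with its own array. Moderation draws that spread towards a value shared by all features fitted.

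The members, classes, gene lists and tests were chosen with earlier results of these data known, so no test was made over a list. Signals by mouse were given for chains without overlap between ages, past a threshold by any probe set, with the 2 smallest p of a class, or defining of a type, and up to 2 genes of each related list were named by their p. Serpinh1, the lysyl oxidases and other values were chosen after they were seen. Alternatives were each mouse left out, quantile normalization, median centring, brighter probe sets alone, signal floors of 32 and 64, mouse numbers as a block, no moderation, a trended and robust prior, array weights, the mean of all probe sets, identifiers ending in _x_at or _s_at left out, other fold thresholds, and type IX collagen under FACIT. The steps were tested on simulated data. Promoters and gene order came from RefSeq tables of GRCm38.p6, and the files carry no coordinates.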

Additional observations from a re-analysis of the deposited data

Results flagged for a closer look

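Col12a1 in old mouse 6 had a signal of 719, while the other 3 old mice lay between 895 and 909. On the log2 scale the gap was 0.94 of the group's range, which is past Dixon's critical value at 95%. It was the 1 such group among 50 tested, 25 named genes in each age, and chance gives about 1 in 20. Without old mouse 6 the log2 fold change of Col12a1 was 0.34 in place of 0.26.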

How the results depend on the processing

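No paired analysis was possible because the groups share no replicate number. The main counts at an adjusted p under 0.05 were 2 genes lower and 1 higher, and 1 probe set lower and 0 higher. Without each mouse in turn all of these were 0, with 15 to 22 genes and 26 to 38 probe sets lower at an unadjusted p under 0.05, and the basement membrane median was -0.58 to -0.29. Fewer samples enter these fits. Quantile normalization gave 1 gene lower. The brighter part of the probe sets, where fewer are tested, gave 7 genes and 15 probe sets lower and 1 probe set higher. A floor of 32 gave 5 genes and 4 probe sets lower and 1 probe set higher, and a floor of 64 gave 4, 2 and 1 and a median of the other chains of -0.26. A block for mouse numbers 1 to 4 against 5 to 8 gave 1 gene lower (Col3a1), 0 higher and 0 probe sets lower. No moderation gave 1 gene and 0 probe sets lower, and the trended and robust prior 8 genes and 16 probe sets lower and 1 probe set higher. The mean of all probe sets gave 1 gene lower (Col4a5), 0 higher and a median of the other chains of -0.23. Without identifiers ending in _x_at or _s_at 1 gene and 0 probe sets were lower. A fold above 2 with an unadjusted p under 0.05 gave 3 genes lower, 0 higher and 9 probe sets lower, and a fold above 1.5 gave 11, 0 and 20. Shares of all genes are given above for the fold above 2 but not for the fold above 1.5 or the refitted alternatives. Whether those settings call more of all genes is therefore not shown. Other causes were not tested. Median centring and array weights left these counts as they were and moved each class median by less than the SD between mice, and placing type IX collagen under FACIT gave medians of -0.55 for cartilage and -0.26 for FACIT. The pairs of probe sets past the adjusted threshold were 0 under every alternative that refits them. Col2a1 was the 1 named gene whose sign turned, at 0.0023 without old mouse 5 and 0.087 without young mouse 4, in a range of -0.40 to 0.087 over the mice left out. Signals near the bottom of the arrays, such as those of Col6a5 and the further Col5a3 probe set, limit what can be said of the dim chains.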
